A study of Mus musculus with 6 samples.

Results

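Diacylglycerol is a lipid messenger, and the genes described here make it, respond to it or remove it: Plcg1, Rasgrp1, Prkcq, Prkcd, Prkch, Dgka and Dgkz. They were taken as every probe whose symbol in the platform annotation was 1 of these 7, out of 16593 genes with a named probe. The 7 genes had 13 probes among the 25697 of the array, and 12 of these, for 6 genes, were tested because they were detected on at least 2 of the 6 arrays. In the strong-ligand group Prkch was 10.8-fold higher than with the non-selecting ligand, Dgkz about 2.05-fold higher and Dgka 2.07-fold lower, while none of the genes differed detectably between the weak ligands.

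All cells were thymocytes labelled as double-positive cells before selection, from AND.Rag1-/-H-2d mice. These mice carry the AND T cell receptor, are labelled Rag1-/- and have the H-2d background. The cells were held for 7 h on plate-bound I-Ek Ig dimers loaded with 1 of 3 peptides. The labels describe the MCC signal as negative selection, the gp250 signal as positive selection and the Hb signal as non-selecting, with 2 Illumina 1-colour arrays each. The labels do not say whether the 2 arrays of a ligand came from separate mice or cultures, so p-values measure the spread between these arrays only, which may be technical.

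In T cells, phospholipase C-gamma1 is activated at the adaptor LAT after the receptor binds its ligand, and splits a membrane phospholipid into diacylglycerol and an inositol phosphate that releases calcium. Diacylglycerol then recruits proteins with a C1 domain: the RAS exchange factor RASGRP1, which opens the ERK cascade and is needed for positive selection of thymocytes in mice, and protein kinases C such as PKC-theta. Diacylglycerol kinases, mainly the alpha and zeta forms in T cells, phosphorylate the lipid to phosphatidic acid and so end the signal.

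Arrays ranged in mean deposited intensity between 582 and 613 for MCC, 445 and 482 for gp250, and 470 and 488 for Hb. Each array detected between 10519 and 11603 probes (detection p-value under 0.05). Replicate arrays correlated at r = 0.994 over the 11942 tested probes for each ligand. Precision is limited by there being 2 arrays a ligand. Egr2, a receptor-induced transcription factor gene that served to check the labels, had intensities of 14963 and 14740.4 with MCC, 143 and 160 with gp250, and 203 and 206 with Hb. The 4 genes of this check, Egr1, Egr2, Cd69 and Cd5, were all higher with MCC. Between gp250 and Hb 0 of the 4 were called, so the check does not separate those 2 labels. Of 11 genes of double-positive thymocytes, 9 were tested. Among them Cd8b1, a subunit of the coreceptor CD8, was at 9328 and 10275 with MCC, 45247 and 41036 with gp250, and 47008 and 44612 with Hb. Cd4 was at 15.7 and 27.8 with MCC, detected on neither array, 734 and 794 with gp250, and 874 and 866 with Hb. The Rag1 probe, among the 9, read 745 and 822 with MCC, 7638 and 9152 with gp250, and 7859 and 8288 with Hb. The mice are labelled Rag1-/-, and what this probe reads in them was not tested. The only Cd8a probe was not detected on any array, which says nothing about the protein. Thus 7 of the 9 identity genes were lower with MCC than with Hb and 1 was higher, beside 28.8% and 26.2% of all tested genes. The higher 1 was Cd3g, at 34700 and 32720 with MCC, 18098 and 19131 with gp250, and 21061 and 18502 with Hb. Cd3e, at 16622 and 15505 with MCC, 11594 and 12162 with gp250, and 11343 and 11076 with Hb, was not called. Of 30 markers of B, myeloid, natural killer, erythroid and stromal cells, 10 were tested, and their summed intensity lay between 4387 and 4400 for MCC, 6153 and 6404 for gp250, and 6012 and 6401 for Hb. These 10 did not move as 1 group: 3 were higher and 5 lower with MCC than with Hb, beside 26.2% and 28.8% of all tested genes. Without the detection filter the calls of Krt8, Cd79a and Hba-a1 were lost. The globin gene Hba-a1 alone supplied 2744 and 2699 with MCC, 3679 and 3075 with gp250, and 2964 and 3416 with Hb. Among the markers not tested, Ncr1, Klrb1c, Tyrobp, Krt5 and Col1a1 had probes that were not detected on any array. The part of other cells in the results was not tested. In RNA from many cells, fewer cells that express a gene and less of its RNA per cell cannot be told apart.

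The starting regions of the kinase genes that moved in opposite directions are shown to give a picture of their promoters, with CG pairs in capitals. The sequences are the 250 bases before a transcript start, 5′ to 3′ on the gene's strand, from RefSeq (GRCm38.p6). The table held windows for 6 of the 7 genes, 11 in all, and Prkch was not among them. Dgka had 4 starts and Dgkz 2, and the windows with the lowest and the highest GC content of each gene are printed.
Dgka, chr10:128745085-128745334, minus strand, 41.2% GC and 3 CG pairs: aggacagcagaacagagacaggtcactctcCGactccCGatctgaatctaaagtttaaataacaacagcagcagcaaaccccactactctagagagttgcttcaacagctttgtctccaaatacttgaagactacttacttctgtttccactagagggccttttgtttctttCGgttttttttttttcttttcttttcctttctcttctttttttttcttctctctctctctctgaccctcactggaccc
Dgka, chr10:128743879-128744128, minus strand, 72.4% GC and 25 CG pairs: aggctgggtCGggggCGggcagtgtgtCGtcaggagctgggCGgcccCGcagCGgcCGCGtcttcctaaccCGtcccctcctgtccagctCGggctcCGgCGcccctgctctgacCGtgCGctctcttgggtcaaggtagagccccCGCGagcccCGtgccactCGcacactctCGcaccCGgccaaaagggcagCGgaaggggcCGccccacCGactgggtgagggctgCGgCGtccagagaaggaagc
Dgkz, chr2:91950349-91950598, minus strand, 62.4% GC and 9 CG pairs: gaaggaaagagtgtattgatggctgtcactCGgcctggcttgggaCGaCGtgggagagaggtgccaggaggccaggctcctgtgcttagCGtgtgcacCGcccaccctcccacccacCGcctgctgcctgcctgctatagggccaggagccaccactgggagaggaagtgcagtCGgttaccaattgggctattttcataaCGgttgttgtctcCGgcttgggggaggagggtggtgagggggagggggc
Dgkz, chr2:91963564-91963813, minus strand, 77.6% GC and 33 CG pairs: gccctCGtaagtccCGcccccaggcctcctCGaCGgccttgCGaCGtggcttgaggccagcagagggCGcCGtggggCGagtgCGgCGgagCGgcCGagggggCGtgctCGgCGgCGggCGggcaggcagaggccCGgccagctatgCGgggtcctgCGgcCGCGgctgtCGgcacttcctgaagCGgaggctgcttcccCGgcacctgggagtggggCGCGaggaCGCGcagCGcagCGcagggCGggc
The median over all 32851 windows in the table was 52.4% GC and 6 CG pairs, and 92.1% of the windows held at least 1 CG. Motif letters of 4 families of factors that act in T cells were searched on both strands of the 11 windows. They were GCGNGGGCG for EGR factors (in 4.70% of all windows), TGANTCA for AP-1 (6.75%), GTAAACA for FOXO factors (3.17%) and CCGGAAG for ETS factors (6.91%). The only match was GCGNGGGCG in the window of Plcg1, with its first base 36 bases before the start, and none of the 4 was found in the other 10 windows. With a single match there was no overlap between motifs. The arrays do not say which start was used.

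MCC was compared with Hb, which sets a signal for negative selection beside one that does not select, and with gp250, which sets it beside a signal for positive selection. They share the MCC arrays. Of the 6 tested genes, read at their brightest probe, 2 rose and 3 fell in each comparison (limma, adjusted p under 0.05). MCC changed much of what the arrays measure: 55.1% of all 8253 tested genes were called against Hb and 55.9% against gp250. By probe, 4 of the 12 rose and 5 fell in each comparison. Of all 11942 tested probes, 54.8% were called against Hb (26.6% higher, 28.2% lower) and 55.8% against gp250 (27.1% higher, 28.6% lower). A call alone therefore sets no gene apart, and the size and direction of each change are given below.

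**Figure D1:**
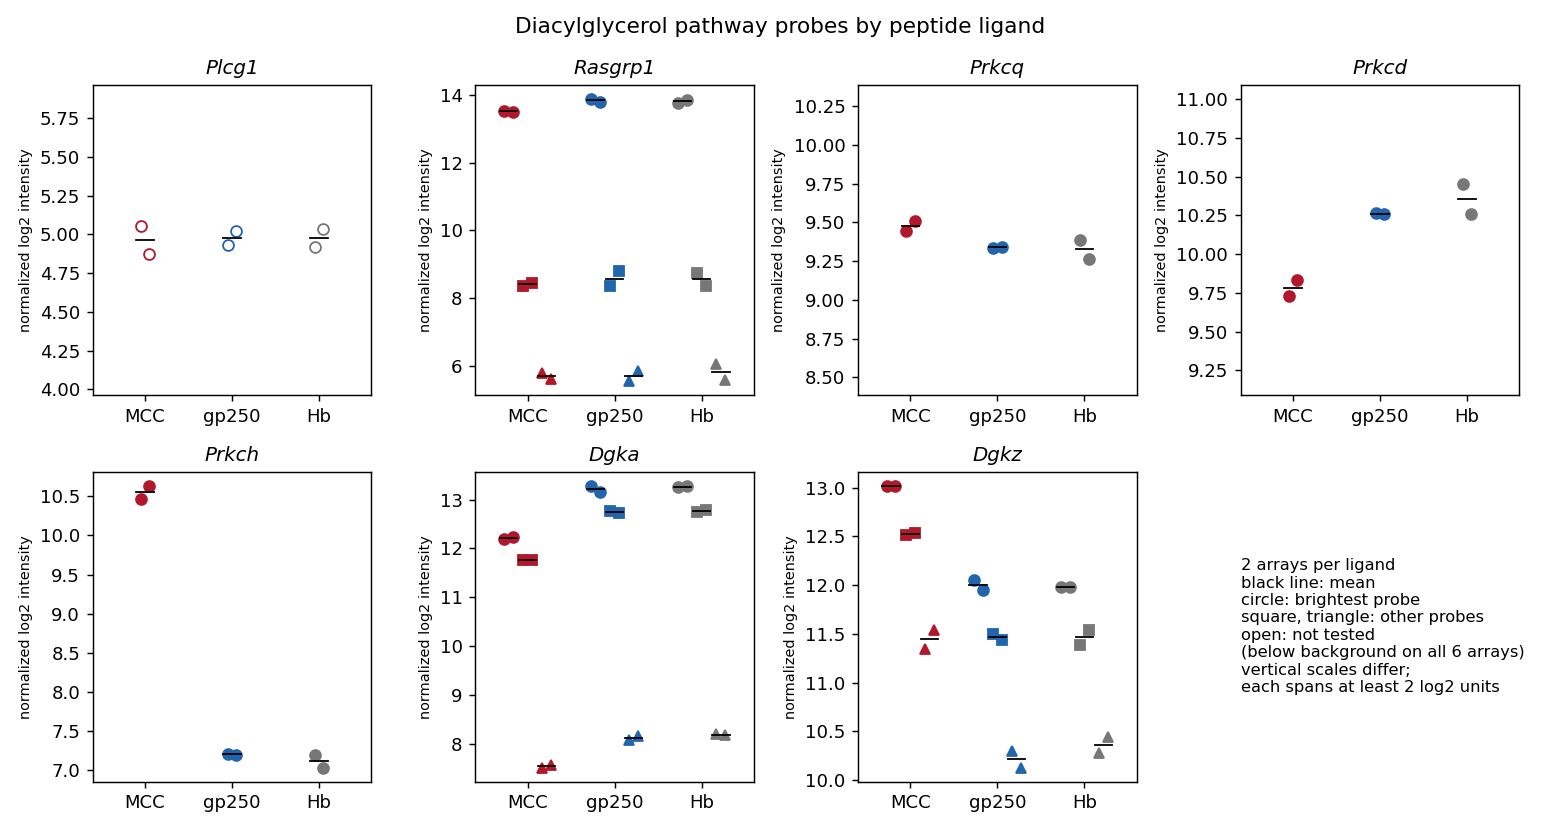
Normalized log2 intensity (vertical axis) of the 13 probes of the 7 genes on each array, by ligand (horizontal axis), with black lines at the mean of the 2 arrays. The MCC arrays lie farthest from the gp250 and Hb arrays for Prkch (10.6 against 7.20 and 7.11), Dgka and Dgkz. They lie apart by less for Prkcd, Prkcq and the brightest probe of Rasgrp1, while the Plcg1 probe lies near background throughout.

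Plcg1, which encodes the lipase that makes diacylglycerol below the receptor, could not be assessed. Its single probe read 6.33 and -6.06 with MCC, 0.288 and 5.41 with gp250, and -1.15 and 5.32 with Hb in deposited intensity. Its detection p-values ran from 0.272 to 0.509, so the probe was below background on all 6 arrays and was not tested. A probe that does not detect a transcript does not show that the transcript is absent.

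Rasgrp1 was bright and nearly level across the ligands. Its brightest probe had intensities of 14355 and 12563 with MCC, 13106 and 13261 with gp250, and 13360 and 13538 with Hb. The MCC values enclose all others before normalization. After quantile normalization the groups no longer overlapped, and the probe was called lower with MCC, by a log2 difference of -0.30 ± 0.09 (SE, n = 2 arrays per ligand, limma adjusted p = 0.0306) against Hb and -0.33 ± 0.09 (adjusted p = 0.0216) against gp250. This small fall depended on the scaling: without scaling between arrays the differences were -0.0021 (adjusted p = 0.99) and 0.027 (adjusted p = 0.862). The call against Hb was also lost without MCC replicate 1 (-0.33, adjusted p = 0.074), MCC replicate 2 (-0.27, 0.12), Hb replicate 1 (-0.33, 0.0682) or Hb replicate 2 (-0.26, 0.121). With the replicate number as a block it had an adjusted p of 0.0502. The call against gp250 was lost without MCC replicate 1 (-0.36, adjusted p = 0.0576), MCC replicate 2 (-0.30, 0.0908) or gp250 replicate 1 (-0.28, 0.0997), with differences of about the same size. The other 2 probes did not pass either, at -0.15 ± 0.18 and -0.11 ± 0.18 against Hb, and the dimmer of them was detected on only 3 arrays.

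Prkch, Prkcd and Prkcq encode protein kinases C that need diacylglycerol but not calcium. Prkch, the gene of PKC-eta, which is known in lymphocytes and epithelia, had intensities of 1672 and 1812 with MCC, 116 and 126 with gp250, and 126 and 109 with Hb. Both MCC arrays were far above every gp250 and Hb array, which lay close together, and the probe was detected on all 6. The log2 difference was 3.44 ± 0.11 against Hb (10.8-fold, 95% interval 9.07 to 12.9, adjusted p = 3.57e-06) and 3.35 ± 0.11 against gp250 (10.2-fold, interval 8.53 to 12.2, adjusted p = 3.66e-06). Only 44 of the 8253 tested genes had a larger fitted rise against Hb.

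Prkcd, which encodes PKC-delta, a kinase best known in mice for restraining B cell responses, moved the other way by a smaller amount. Its intensities were 984 and 1021 with MCC, 1053 and 1141 with gp250, and 1315 and 1100 with Hb, so that both MCC arrays were lowest. The normalized log2 difference was -0.58 ± 0.10 against Hb (adjusted p = 0.00391) and -0.48 ± 0.10 against gp250 (adjusted p = 0.00807). Without scaling between arrays it shrank to -0.26 (adjusted p = 0.12) and -0.13 (adjusted p = 0.425), and the calls were lost. PKC-delta is also expressed in B and myeloid cells. Beside this fall, the 2 tested B cell markers, Cd79a and Cd79b, were summed in intensity. The sum lay between 263 and 265 for MCC, 1012 and 1140 for gp250, and 1095 and 1116 for Hb. Nearly all of it was Cd79b, at 238 and 229 with MCC, 988 and 1106 with gp250, and 1078 and 1044 with Hb. Cd79a was dim, at 27.6 and 33.1 with MCC, 23.4 and 33.7 with gp250, and 38.4 and 51.0 with Hb. The B cell genes Pax5 and Cd22 had probes that no array detected. The summed intensity of the 3 tested myeloid markers lay between 668 and 703 for MCC, 418 and 448 for gp250, and 448 and 512 for Hb. Most of it was 1 gene, H2-Ab1, at 525 and 534 with MCC, 286 and 246 with gp250, and 289 and 301 with Hb. The median log2 difference of the 3 against Hb was -0.24, in the other direction. Itgam, Itgax and Adgre1 had probes that were not detected on any array. The part of such cells in the Prkcd result was not tested.

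Prkcq, which encodes PKC-theta, the isoform that is recruited to the contact between a T cell and its partner, was not called. It read 797 and 806 with MCC, 544 and 602 with gp250, and 630 and 552 with Hb. Both MCC arrays were highest, but after normalization the log2 difference was only 0.15 ± 0.09 against Hb (interval -0.07 to 0.37, adjusted p = 0.208) and 0.14 ± 0.09 against gp250 (interval -0.08 to 0.36, adjusted p = 0.245). Without scaling it was 0.43 (adjusted p = 0.0166) and 0.48 (adjusted p = 0.0106), past the threshold.

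The kinases that remove diacylglycerol moved in opposite directions. The brightest probe of Dgka, which encodes the alpha form, read 5780 and 5570 with MCC, 8516 and 8399 with gp250, and 9183 and 8929 with Hb. Every MCC value lay below every other value at all 3 probes of the gene. The log2 difference was -1.05 ± 0.09 against Hb (adjusted p = 0.000166) and -1.01 ± 0.09 against gp250 (adjusted p = 0.000193). Another bright probe gave -1.01 ± 0.09 against Hb. The dimmest, at 190 and 199 with MCC, 224 and 257 with gp250, and 266 and 256 with Hb, gave -0.64 ± 0.09. All 3 were called in both comparisons. Without scaling the brightest probe still passed, with a smaller fall of -0.67 against Hb (adjusted p = 0.00103) and -0.57 against gp250 (adjusted p = 0.0023), while the dimmest lost its call against gp250 (-0.29, adjusted p = 0.0701).

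Dgkz, which encodes the zeta form, had 10248 and 9537 in intensity with MCC at its brightest probe, 3625 and 3689 with gp250, and 3749 and 3616 with Hb. The MCC arrays were apart from all others at each of its 3 probes. The log2 difference was 1.04 ± 0.09 against Hb (adjusted p = 0.000152) and 1.02 ± 0.09 against gp250 (adjusted p = 0.000163). The other probes gave 1.06 ± 0.09 and 1.09 ± 0.12 against Hb, and all 3 were called in both comparisons. Without scaling the rise of the brightest probe was larger, 1.42 against Hb and 1.43 against gp250. Within each array, the signal of Dgkz relative to that of Dgka was 4.25-fold higher with MCC than with Hb (log2 2.09). This ratio does not depend on a factor common to an array, and it has no test here beyond those of the 2 genes.

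**Figure D2:**
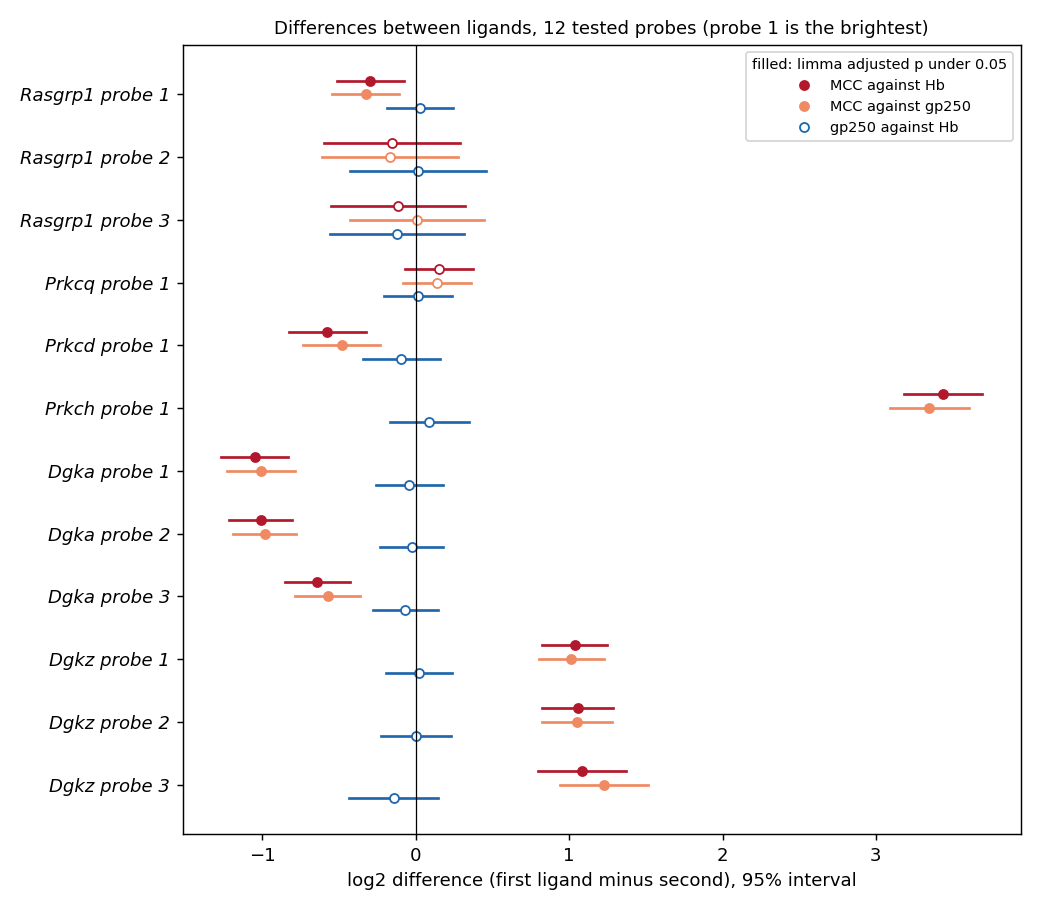
Log2 difference between ligands (horizontal axis, first ligand minus second) with its 95% interval for each of the 12 tested probes, filled where the limma adjusted p was under 0.05. The probes of Dgka all lie to the left and those of Dgkz all to the right of 0 when MCC is compared with Hb or gp250, Prkch lies beyond 3, and every interval of gp250 against Hb crosses 0.

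Setting gp250 beside Hb compares a signal for positive selection with a non-selecting one after 7 h. None of the 12 tested probes was called in limma, and 0 had an unadjusted p under 0.05. Among all tested genes 0% were called, and 782 of the 11942 probes had an unadjusted p under 0.05. The smallest adjusted p among the 12 probes was 0.91, and the largest difference was 0.14 in size on the log2 scale. At the brightest probes Prkch differed by 0.09 ± 0.11 (interval -0.17 to 0.35), Dgka by -0.04 ± 0.09 (-0.26 to 0.18) and Dgkz by 0.02 ± 0.09 (-0.19 to 0.23). Prkcd differed by -0.09 ± 0.10 (-0.34 to 0.16), Prkcq by 0.01 ± 0.09 (-0.21 to 0.24) and Rasgrp1 by 0.03 ± 0.09 (-0.19 to 0.25). All 12 intervals excluded changes of 2-fold or more, the widest reaching -0.56 and 0.46. Changes inside an interval are not excluded, and an adjusted p above 0.05 does not show that the ligands act alike.

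For each gene the 3 other genes with the most similar profile were found by the Euclidean distance between log2 values centred on their own mean over the 6 arrays. For Prkch they were Cd2, an adhesion receptor gene (distance 0.17), Eml1 (0.24) and Irf4, a transcription factor gene induced by receptor signals (0.25), where the median gene was 3.98 away. For Dgkz they were Tmc6, Ubl4a and Srf, which encodes serum response factor (0.07 to 0.08, median 1.32). For Dgka they were Slc35a5, Pias3 and Pip4k2a, a phosphoinositide kinase gene (0.08 to 0.09, median 1.23). Prkcd was nearest to Pcmt1, Cep97 and Cnpy3, Prkcq to Ppp1r35, Mgrn1 and Kctd20, and Rasgrp1 to Lsm8, Cep120 and Cdk5rap3. With 6 arrays and a contrast of MCC with all others, many genes share such a profile.

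Other genes of the pathway, in 7 lists of 108 genes, had 63 tested genes. Against Hb, 14 of them were higher with MCC, 27 were lower and 22 were not called, and their median log2 difference was -0.21. Over all 8253 tested genes 26.2% were higher, 28.8% lower, and the median was -0.04. Without scaling between arrays the median tested probe was 0.22 (log2) higher with MCC than with Hb, and the 37 called pathway genes split into 19 higher and 18 lower. For the 6 genes above, the split of 2 higher and 3 lower became 3 higher and 1 lower, and for all probes 3176 higher and 3369 lower became 4674 higher and 2017 lower. Against gp250, 15 of the 63 were higher with MCC and 26 were lower, beside 26.3% and 29.6% of all tested genes. In gp250 against Hb, limma called 0 of the 63, and their smallest adjusted p was 0.734. Leaving out 1 array gave 31 to 43 called pathway genes in MCC against Hb.

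Upstream of the lipase, 2 of 9 tested genes rose and 5 fell (median -0.35). Zap70, the kinase that phosphorylates LAT, read 11154 and 10517 with MCC, 3402 and 3374 with gp250, and 3569 and 3217 with Hb, and was 2.45-fold higher than with Hb (log2 1.29 ± 0.10, adjusted p = 8.72e-05). All 3 of its tested probes rose. Sh2d2a, an adaptor gene of activated T cells, was 2.58-fold higher. Tec, a kinase that can activate the lipase, read 366 and 250 with MCC, 1899 and 2104 with gp250, and 2028 and 1786 with Hb, and was 7.36-fold lower (log2 -2.88 ± 0.17, adjusted p = 3.3e-05). Grap2, which encodes the adaptor GADS, was 2.70-fold lower, and Lat, the adaptor itself, lay at -1.14 on the log2 scale. Nck1, an adaptor gene, and Vav1, a RAC exchange factor gene, fell slightly (log2 -0.35 and -0.32), and without scaling they lay at -0.027 and 0.038, uncalled. Nck1 also lost its call without MCC replicate 1 (-0.30) or Hb replicate 1 (-0.29), and Vav1 without any 1 of the MCC and Hb arrays (-0.35 to -0.29). With arrays set to a common median Vav1 was not called either (-0.22, limma adjusted p = 0.0747). Lcp2, which encodes the adaptor SLP-76, and Grb2 were not called (log2 -0.46 and -0.06). Lcp2 was called lower under 6 alternatives at about the same difference, with adjusted p between 0.0039 and 0.0414. Among the other phospholipases C, 1 of 6 rose and 3 fell (median -0.29). Plcb3 was 4.71-fold lower, though detected on 1 of the 2 MCC arrays. Plcl2, a relative that lacks lipase activity, was 2.79-fold higher. Plcg2, the gamma form of B cells (log2 -0.38), and Plcb2 (-0.57) fell slightly, and both calls were lost without scaling (adjusted p = 0.203 and 0.149). Plcg2 also lost its call without MCC replicate 1 (-0.28), Hb replicate 1 (-0.37) or Hb replicate 2 (-0.40), and Plcb2 without MCC replicate 2 (-0.44) or Hb replicate 2 (-0.41). With the other spread estimate Plcg2 was not called either (limma adjusted p = 0.0745).

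Among the other proteins with a C1 domain, 2 of 9 tested genes rose and 3 fell (median -0.19). The steepest change belonged to Chn2, which encodes beta-chimaerin, a diacylglycerol-bound GTPase-activating protein for RAC. It read 856 and 874 with MCC, -2.33 and 2.79 with gp250, and 14.4 and -10.5 with Hb. With gp250 or Hb no array detected Chn2, so it was at least 14.7-fold higher with MCC than with Hb (adjusted p = 4.73e-06). Prkcb, a conventional protein kinase C that needs calcium as well, read 1818 and 1645 with MCC, 4339 and 4962 with gp250, and 4778 and 4786 with Hb, a 3.53-fold fall against Hb (log2 -1.82 ± 0.09, adjusted p = 1.66e-05). Prkca, its close relative, was 1.99-fold higher, from a dim probe detected on 1 of the 2 Hb arrays. Rasgrp2, a relative of Rasgrp1 that acts on RAP1, was not detected with MCC, which makes it at least 1.10-fold lower. Prkd2, a kinase phosphorylated by protein kinase C, also fell (log2 -0.93). When only probes detected on all 6 arrays were tested, 4 genes of this list were left, of which 3 fell and 0 rose. That filter removes Chn2 and Prkca, the 2 that rose, because they were not detected on all gp250 and Hb arrays. The count of 0 therefore says nothing against their rise. Rasgrp2 was removed too, and 1 of the 3 that fell, Prkd3 (log2 -0.24), was not called in the main fit.

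Among the other enzymes that make or use diacylglycerol, 2 of 9 tested genes rose and 4 fell (median -0.50). The theta kinase gene Dgkq lay at -0.50 and the diacylglycerol lipase gene Daglb at 0.42 on the log2 scale. Both lost their calls without MCC replicate 1 (-0.33 and 0.31) or Hb replicate 2 (-0.48 and 0.33), and Dgkq also without scaling (-0.25). Dgke, the epsilon kinase, was 3.72-fold lower (log2 -1.89 ± 0.18, adjusted p = 0.000266). Dgat2, an enzyme that turns diacylglycerol into storage fat, was 1.89-fold higher. Lpin1, a phosphatase that makes diacylglycerol from phosphatidic acid, lay at -0.59 on the log2 scale, a call lost without scaling (-0.37), without MCC replicate 2 (-0.46) and without Hb replicate 2 (-0.47). Plpp3, another lipid phosphatase gene, was detected on neither MCC array and on 1 Hb array, and lost its call without MCC replicate 2 (log2 -0.54, adjusted p = 0.0559, against -0.68 with all arrays). Without Hb replicate 2 this list had 1 gene higher and 2 lower. Among the atypical protein kinases C and the partners and substrates of the family, 2 of 7 rose and 3 fell (median -0.14). Pebp1, which encodes a RAF inhibitor that protein kinase C phosphorylates, lay at 0.63 and lost its call without MCC replicate 1 (0.47) or Hb replicate 1 (0.55). Marcks, a classical substrate, read 1507 and 1596 with MCC, 4879 and 5206 with gp250, and 5429 and 4808 with Hb, and was 4.18-fold lower than with Hb (adjusted p = 1.48e-05), whereas its relative Marcksl1 was 1.69-fold higher. Prkcz, the atypical zeta isoform, was 3.31-fold lower, and Pdpk1, which encodes the kinase that primes protein kinases C, 1.67-fold lower.

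**Figure D3:**
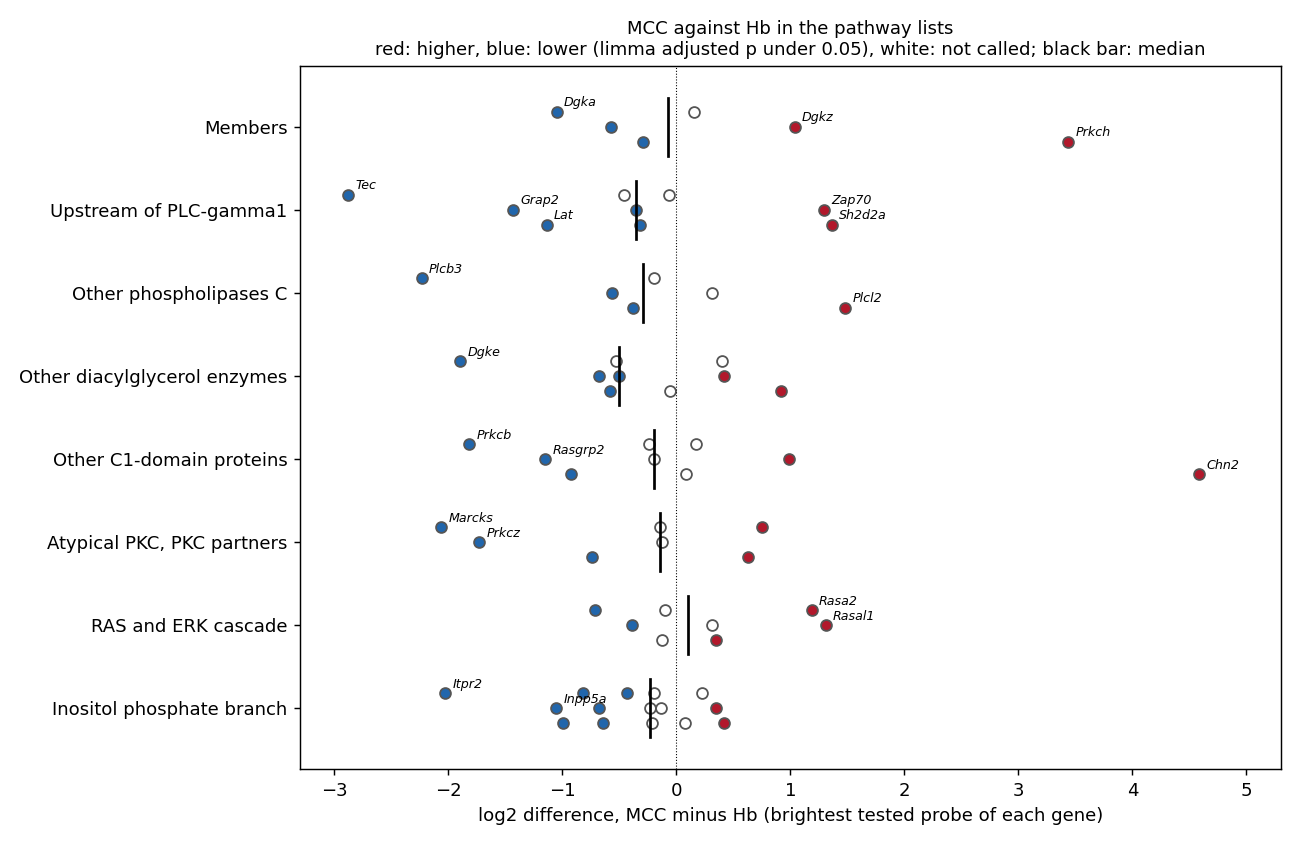
Log2 difference of MCC minus Hb (horizontal axis) for the brightest tested probe of each gene, with the 6 tested genes of the diacylglycerol set in the top line and the 7 pathway lists under it. Points are red where higher and blue where lower by limma adjusted p, and black bars are medians. Genes went both ways in every list, with Chn2 and Prkch farthest to the right and Tec farthest to the left. Without scaling, which is not plotted here, the RAS and ERK list had 5 higher and 0 lower.

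Below RASGRP1, 3 of 8 tested genes of the RAS and ERK list rose and 2 fell (median 0.10). Rasal1 was 2.48-fold and Rasa2 2.27-fold higher, both GTPase-activating proteins that switch RAS off. Rasa1, another one, lay at 0.34 and lost its call without any 1 of MCC replicate 1 (0.35), MCC replicate 2 (0.32) or Hb replicate 2 (0.29). Rasal3, a further one, was 1.31-fold lower (log2 -0.39), but differed by -0.01 without scaling (adjusted p = 0.958). Map2k1, which encodes the ERK kinase MEK1, was not detected with MCC, which makes it at least 1.35-fold lower there. Its probe was dim, at 20.8 and 40.9 with MCC, 29.2 and 35.4 with gp250, and 45.0 and 72.2 with Hb. Both gp250 intensities lay between those with MCC, so the fall is one against Hb only. The call was lost without background correction (fitted log2 -1.16, limma adjusted p = 0.0557) and without the detection filter (-0.71, adjusted p = 0.0526). It was also lost without scaling (-0.55), without MCC replicate 1 (-0.51) and without Hb replicate 2 (-0.44). Without either of these 2 arrays the list had 2 genes higher and 1 lower. Without scaling 5 were higher and 0 lower.

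In the inositol phosphate branch, 2 of 15 tested genes rose and 7 fell (median -0.23). Itpr2, a receptor that releases calcium from the endoplasmic reticulum, read 855 and 851 with MCC, 2907 and 2980 with gp250, and 2964 and 2818 with Hb. It was 4.08-fold lower than with Hb (log2 -2.03 ± 0.09, adjusted p = 1.04e-05), and its 3 tested probes fell by different amounts (log2 -2.03 to -0.79). Itpr3, another such receptor, was 1.77-fold lower, Inpp5a, a phosphatase of the inositol phosphate, 2.07-fold lower, and Pip4k2a 1.99-fold lower. Itpkc, a kinase of the inositol phosphate, and Pi4ka, a phosphoinositide kinase gene, lay at 0.42 and 0.34. Itpkc lost its call without any 1 of both MCC arrays and Hb replicate 1 (0.30 to 0.43), and Pi4ka without MCC replicate 2 (0.24), Hb replicate 1 (0.38) or Hb replicate 2 (0.32). With the authors' processed values Pi4ka was not called either (0.31, limma adjusted p = 0.0674). Itpkb, another such kinase gene, needed for thymocyte selection in mice, differed by 0.23 and was not called.

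**Figure D4:**
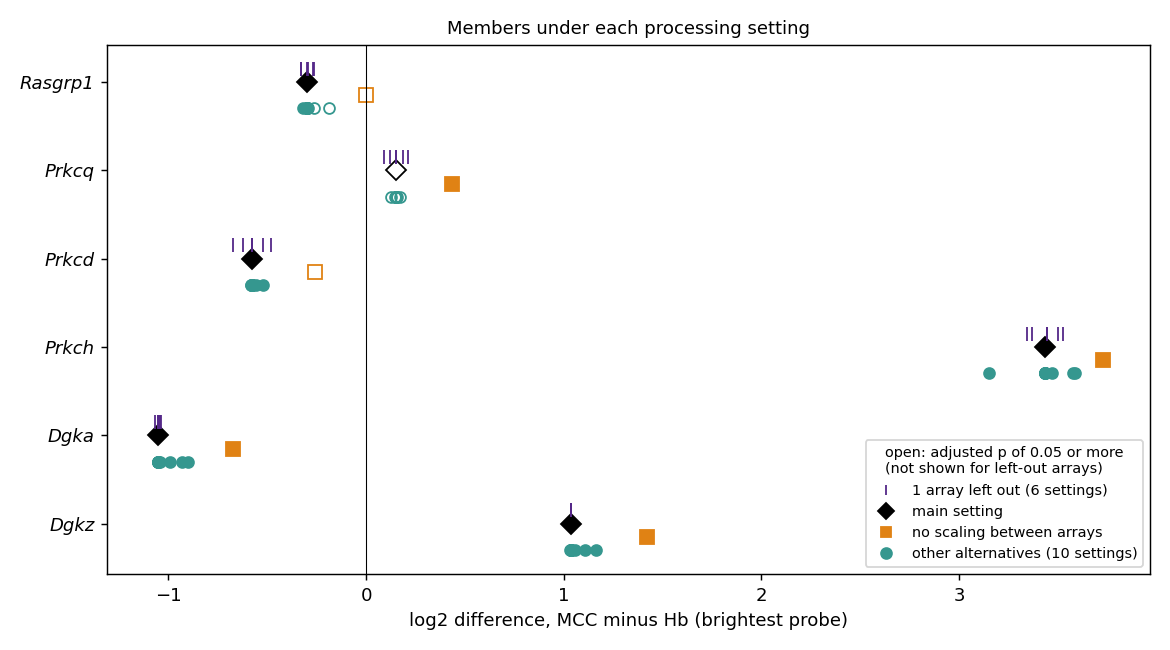
Log2 difference of MCC minus Hb (horizontal axis) at the brightest probe of 6 genes under the main processing and 17 alternatives, with 1 array left out in 6 of them. Prkch, Dgka and Dgkz keep their side of 0 and their call in all of them, whereas without scaling Rasgrp1 and Prkcd lose their calls and Prkcq gains one.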

How the data were processed

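Messenger RNA was measured on 6 Illumina mouse arrays, 2 per ligand, with groups and replicate numbers from the sample titles. Every probe has, per the file headers of the deposited table, its intensity before normalization, beside a detection p-value. Intensities reach below 0, which takes an earlier background subtraction. In the authors' processed table this intensity is multiplied by 1 factor per array (0.825 to 1.13), giving every array a mean of 505 with medians of 17.9 to 21.6. No source used here names the scanner software.

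The neqc function of limma 3.58.1 (R 4.3.3) applied normexp (with background inferred through detection p-values), added 16 as an offset, then quantile normalization and log2. The offset shrinks the differences of dim probes. Testing required a detection p under 0.05 on 2 or more arrays, met by 11942 of 25697 probes. All 6 arrays entered 1 linear model with a mean for each ligand, followed by eBayes and Benjamini-Hochberg adjustment over all tested probes in each of 3 comparisons. Errors are standard errors and intervals are 95%. A probe detected on neither array of a ligand gives "at least" a fold, against the higher of its own and the lowest detected signal. A gene is read at the tested probe with the highest mean signal. Probe symbols come from the platform annotation (23978 probes with 1 symbol, 0 with several, 1719 unnamed here), updated by Entrez number through RefSeq for 23962.

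The genes, lists and named genes were chosen with earlier results of these data known. The rule for named genes took all probes of the 7 genes and, of each list, the called genes with the largest difference between MCC and Hb that had no overlap between arrays, up to 4 for a pathway list and 2 for other cell types. Others, among them Lat, Lcp2, Grb2, Nck1, Vav1, Dgkq, Daglb, Prkd2, Prkd3, Pebp1, Rasa1, Itpkc, Pi4ka and Itpkb, were named after their values were seen. No list was tested as a set. One further pathway list is not reported here. The fit was tested on simulated data. Alternatives changed background correction, offset, scaling, detection filter, replicate block, spread estimate, arrays fitted and probe choice, used the authors' table, or left out each array. No array fell outside the comparisons. Deviations of same-numbered replicates correlated between -0.0228 and 0.017 across ligands, so the numbers were not taken to pair the arrays.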

Additional observations from a re-analysis of the deposited data

How the results depend on the processing

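Over 17 alternatives, the count of the 6 tested genes called was 4 or 5 in MCC against Hb and in MCC against gp250, and 0 in gp250 against Hb. With 1 array left out it ran from 4 to 5 in the first 2 comparisons. All tested probes called ran from 5029 to 6481 (MCC against Hb), 5129 to 6568 (MCC against gp250) and 0 to 0 (gp250 against Hb) with 1 array left out. With the replicate number as a block, 6331 probes were called in MCC against Hb, 6474 in MCC against gp250 and 0 in gp250 against Hb, and 4, 5 and 0 of the 6 genes. The block ended the call of Rasgrp1 against Hb and changed no other call among the 7 genes.

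At the brightest probes Prkch lay between 3.15 and 3.73, Dgkz between 1.03 and 1.42 and Dgka between -1.07 and -0.67 (log2, MCC against Hb), called under every alternative tried. The sign of Rasgrp1 turned in MCC against gp250 without scaling between arrays (0.027, adjusted p = 0.862). With the mean of its 3 probes Rasgrp1 was not called (-0.19 against Hb, adjusted p = 0.249; -0.16 against gp250, adjusted p = 0.313), nor was it with a common median (-0.26 and -0.28). Vav1 turned from lower to higher against Hb without scaling (0.038, adjusted p = 0.789). Of the other list genes tested, 33 of 86 moved across the threshold under at least 1 alternative. The cause was not tested. Probes near background, such as that of Plcg1, and small changes, such as that of Rasgrp1, limit what 2 arrays per ligand can show.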
